A study of Mus musculus with 6 samples.

Results

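Genes of glucose uptake, glycolysis, gluconeogenesis and their side branches were compared in the normal duodenum of Apc+/- mice and of Apc+/-Atg7-/- mice. The 35 genes were listed by name, and a gene's probe set was the one that the platform annotation assigns to that gene alone, with the highest mean over all 6 arrays where there were several. In this way 31 of the 35 were measured, of 19938 named genes in all. Gapdh is listed only on probe sets that also name other genes (25 of them), and it was not analysed here, nor were Gpi1, Eno1 and G6pdx.

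The control group was 3 arrays of Apc+/- duodenum, and the test group was 3 arrays of duodenum labelled Apc+/-Atg7-/-, on a C57Bl6 background. Every sample therefore carried the Apc mutation, and no wild-type duodenum is among the 6 arrays. Atg7 is an enzyme needed to form autophagosomes, the vesicles in which a cell digests its own contents. The labels name no drug, age, feeding state, time of dissection or Cre driver. Whole dissected tissue was hybridised, so fewer cells of a type and less RNA per cell cannot be told apart.

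Duodenal enterocytes take up glucose and galactose from the gut lumen together with sodium, take up fructose by a separate carrier, and pass the sugars to the blood. Inside the cell, glycolysis splits glucose to pyruvate, which becomes lactate or enters mitochondria. Gluconeogenesis runs that route backwards through a few enzymes of its own, which small intestine also expresses. The pentose phosphate pathway draws on the same glucose to make NADPH and ribose. AMPK is the kinase complex that senses low cellular energy and favours glucose breakdown.

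Values are log2 signals, on which 1 unit is a doubling. They compare arrays for the same gene and not one gene with another. The Atg7 probe set read 7.05, 7.17 and 7.27 in Apc+/- replicates 1 to 3 and 6.46, 6.65 and 6.78 in Apc+/-Atg7-/- replicates 1 to 3. The genotypes did not overlap for Atg7, as the labels require, although the limma difference of -0.53 (SE 0.11) did not pass over all genes (adjusted p = 0.242). Pairs of arrays correlated at 0.989 to 0.994 over all probe sets. Apc+/-Atg7-/- replicate 1 had male-type signal (Xist 4.58) and the other 5 arrays had Xist between 10.1 and 10.3. Enterocyte transcripts were bright on all arrays (Vil1 at 11.3 to 11.7, Fabp2 at 12.8 to 13.1).

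No member passed an adjusted p of 0.05. By limma, with Benjamini-Hochberg adjustment over all 19938 genes, 0 of the 31 were called higher and 0 lower, where 0.0702% and 0.0401% of all genes were called. At an unadjusted p under 0.05 the members had 1 gene higher (Slc2a1) and 1 lower (G6pc), that is 2 of 31 beside 5.11% of all genes (2.38% higher and 2.73% lower). The arrays of the genotypes lay fully apart for 3 of 31 members, all higher in Apc+/-Atg7-/- (Slc2a1, Pdk1 and Taldo1), beside 10.0% of all genes (4.81% higher and 5.23% lower). Both shares are close to their backgrounds. Of the 31, 15 were higher and 16 lower, where 8611 of all genes were higher and 11327 lower. The median difference was -0.006 against -0.018 over all genes. Hk1 was counted as higher by a probe set whose uncertainty is given below.

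**Figure D1:**
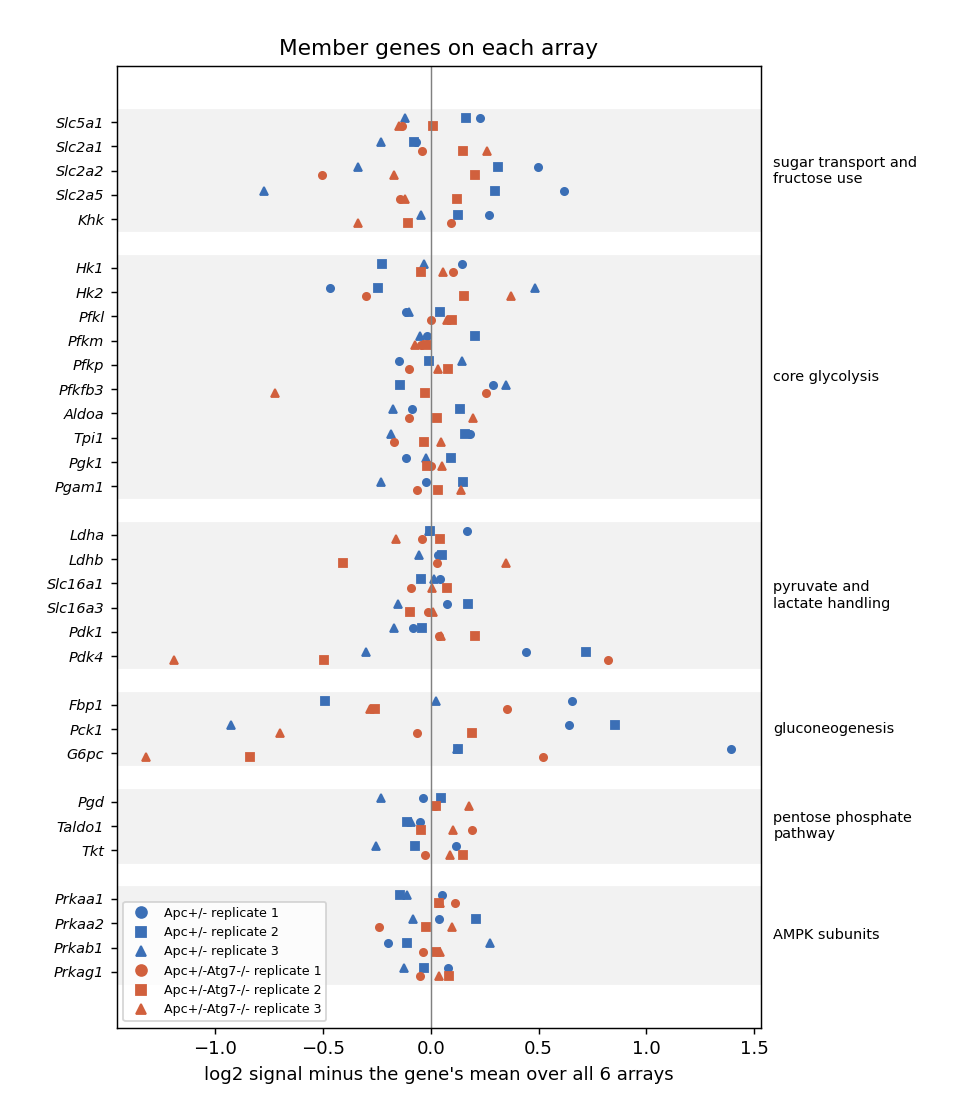
The log2 signal of each of the 31 members on each array (horizontal axis) as its distance from that gene's mean over the 6 arrays, with Apc+/- in blue and Apc+/-Atg7-/- in orange and 1 symbol shape per replicate number. Most genes lie close to their mean in both colours, while G6pc, Pck1, Pdk4 and Slc2a5 scatter widely within a colour.

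The intervals show what size of difference these arrays leave possible. For 23 of the 31 members (74.2%) the 95% interval of limma lay wholly within 1.5-fold in either direction, beside 94.9% of all genes. The other 8 were Slc2a2, Slc2a5, Hk2, Pfkfb3, Pdk4, Fbp1, Pck1 and G6pc, in which a change past 1.5-fold in at least 1 direction lies within the interval. A p that misses the threshold does not show that the genotypes were alike in these 8.

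**Figure D2:**
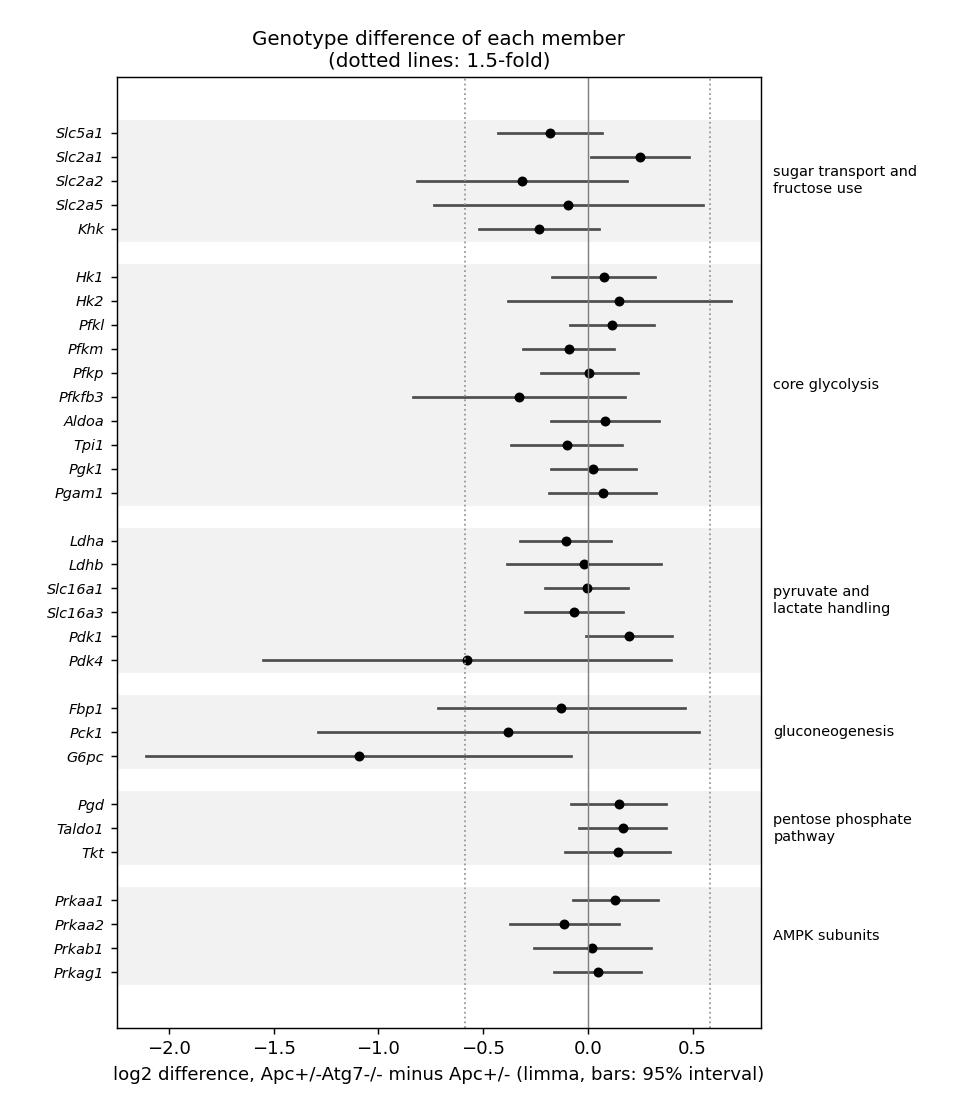
The log2 difference of each member, Apc+/-Atg7-/- minus Apc+/- (points), with limma's 95% interval (bars), grouped by role; dotted lines mark 1.5-fold. The bars of 23 members stay between the dotted lines, beside 94.9% of all genes, and the G6pc bar, from -2.11 to -0.08, is the longest.

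None of the sugar carriers passed. The absorptive carriers Slc5a1, Slc2a2 and Slc2a5 had differences below 0, and Slc2a1 had one above 0. Slc5a1 encodes SGLT1, the sodium-coupled carrier that brings glucose and galactose in from the lumen. It read 12.14, 12.07 and 11.79 in Apc+/- and 11.78, 11.92 and 11.76 in Apc+/-Atg7-/- duodenum. Apc+/- replicates 1 and 2 were above all others and replicate 3 lay among the Apc+/-Atg7-/- arrays. The difference was -0.18 (SE 0.11, adjusted p = 0.961), with an interval of 0.74-fold to 1.05-fold. It was -0.11 without Apc+/- replicate 1 and -0.28 without Apc+/- replicate 3.

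Slc2a2 encodes GLUT2, through which sugars leave the enterocyte toward the blood. It read 10.72, 10.53 and 9.88 in Apc+/- and 9.72, 10.43 and 10.05 in Apc+/-Atg7-/- duodenum, so each genotype held high and low arrays. The difference was -0.31 (SE 0.22, adjusted p = 0.965). It was -0.14 without Apc+/- replicate 1 or without Apc+/-Atg7-/- replicate 1, and -0.56 without Apc+/- replicate 3.

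Slc2a1 encodes GLUT1, a widely expressed carrier that supplies cells with glucose for their own use. It read 7.13, 7.12 and 6.97 in Apc+/- and 7.16, 7.34 and 7.46 in Apc+/-Atg7-/- duodenum. All 3 Apc+/-Atg7-/- arrays were above all 3 Apc+/- arrays, replicate 1 by a small margin. The difference of 0.25 (SE 0.10, a fold of 1.19, interval 1.01 to 1.40) had an unadjusted p of 0.0401 and an adjusted p of 0.95.

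The fructose genes did not separate the genotypes. Slc2a5 encodes GLUT5, the fructose carrier of the brush border, and Khk encodes ketohexokinase, which phosphorylates fructose on entry. Slc2a5 read 9.68, 9.36 and 8.29 in Apc+/- and 8.92, 9.19 and 8.95 in Apc+/-Atg7-/- duodenum. The Apc+/- arrays held both the highest and the lowest value, and the Apc+/-Atg7-/- arrays lay between them. The difference was -0.09 (SE 0.29, adjusted p = 0.999), and it turned to 0.19 without Apc+/- replicate 1 and to 0.20 with array weights. Khk read 10.74, 10.60 and 10.43 in Apc+/- and 10.57, 10.37 and 10.14 in Apc+/-Atg7-/- duodenum, overlapping at 1 array of each. Its difference was -0.23 (SE 0.13, adjusted p = 0.95, interval 0.70-fold to 1.04-fold), and it was -0.12 without Apc+/-Atg7-/- replicate 3.

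Markers of the absorptive epithelium were lower beside these genes, without passing. Of 25 measured enterocyte and brush border genes, none of them a member, 23 were lower, beside 11327 of all 19938 genes. By limma 0 of the 25 passed, and their median difference was -0.16, against -0.018 over all genes. Their mean level was 11.23, 11.12 and 10.87 in Apc+/- and 10.96, 10.99 and 10.60 in Apc+/-Atg7-/- duodenum, so Apc+/- replicate 3 was the lowest of its genotype here as it was for Slc5a1, Slc2a2, Slc2a5 and Khk. Of 15 measured crypt proliferation genes, all 15 were higher, beside 43.2% of all genes, and 0 passed. The mean level of this list was 8.14 to 8.40 in Apc+/- and 8.42 to 8.68 in Apc+/-Atg7-/- duodenum. Slc2a1 and that list share the sign of their difference. The part of either list in the differences of the sugar carriers was not tested.

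Core glycolysis had small differences that did not pass. Of 10 measured members, 7 were higher, beside 43.2% of all genes, and 3 were lower. Of these 10, 0 lay at an unadjusted p under 0.05, and in 0 did the arrays lie apart. Hk1 was counted as higher, while its other probe set differed by -0.12. The median difference of the 10 was 0.05, and 8 of the 10 intervals stayed within 1.5-fold, beside 94.9% of all genes. In all 10 the range among the 3 Apc+/- arrays was wider than the difference between genotypes, as it was in 87.7% of all genes.

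Hk2, the inducible hexokinase that commits glucose to the cell, was the most variable of them. It read 6.74, 6.96 and 7.69 in Apc+/- and 6.90, 7.36 and 7.58 in Apc+/-Atg7-/- duodenum. Each genotype ran from low to high, with Apc+/- replicate 3 the highest of all. The difference was 0.15 (SE 0.24, adjusted p = 0.991), and it stood at 0.43 without Apc+/- replicate 3 and at -0.04 without Apc+/- replicate 1.

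Pfkfb3 makes the signal that speeds phosphofructokinase. It read 8.85, 8.42 and 8.91 in Apc+/- and 8.82, 8.53 and 7.84 in Apc+/-Atg7-/- duodenum. Apc+/-Atg7-/- replicate 3 lay below the other 5 arrays, which overlapped. The difference was -0.33 (SE 0.23, adjusted p = 0.964), and -0.05 without that array. The phosphofructokinase genes themselves, Pfkl, Pfkm and Pfkp, differed by 0.12, -0.09 and 0.01, each with an SE of 0.09 to 0.10.

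The members measured for later steps of glycolysis also showed small differences. These were aldolase Aldoa (0.08), triosephosphate isomerase Tpi1 (-0.10), phosphoglycerate kinase Pgk1 (0.03) and the mutase Pgam1 (0.07), with SE between 0.09 and 0.12. Pgk1 and Pgam1 have 3 probe sets each, with differences of 0.02 to 0.03 and 0.03 to 0.07. In each gene another probe set had the same values as the one used, so these are not 3 separate readings. Several of these genes have processed copies elsewhere in the genome whose transcripts an array can mix.

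Hk1, the housekeeping hexokinase, was uncertain for another reason. The probe set with the highest mean rests on a single accession that also annotates probe sets naming Rpl17, a ribosomal protein gene, and 16 further probe sets list Hk1 with other genes. It differed by 0.08 (SE 0.11), while the probe set that carries the RefSeq transcripts of Hk1 differed by -0.12 (SE 0.09), neither passing. The latter read 6.44, 6.52 and 6.64 in Apc+/- and 6.47, 6.34 and 6.44 in Apc+/-Atg7-/- duodenum, again overlapping.

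Lactate formation and export did not separate the genotypes. Ldha encodes the lactate dehydrogenase subunit that favours lactate formation. It read 10.72, 10.55 and 10.54 in Apc+/- and 10.51, 10.60 and 10.39 in Apc+/-Atg7-/- duodenum, a difference of -0.11 (SE 0.10, adjusted p = 0.975, interval 0.80-fold to 1.08-fold). Ldhb, the other subunit, differed by -0.02 (SE 0.16), and its second probe set by -0.13 (SE 0.16). The monocarboxylate carriers Slc16a1 and Slc16a3, which move lactate across the membrane, differed by -0.01 and -0.07.

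The pyruvate dehydrogenase kinases, which inhibit pyruvate dehydrogenase, had differences of opposite sign, neither passing. Pdk1 read 7.05, 7.09 and 6.96 in Apc+/- and 7.17, 7.34 and 7.18 in Apc+/-Atg7-/- duodenum. The genotypes did not overlap for Pdk1, and the difference was 0.20 (SE 0.09, adjusted p = 0.95). Pdk4, known to respond to fasting and to fatty acids, read 7.91, 8.18 and 7.16 in Apc+/- and 8.28, 6.97 and 6.27 in Apc+/-Atg7-/- duodenum. The highest and the lowest array of Pdk4 both came from Apc+/-Atg7-/- mice. The highest was replicate 1, the array with male-type signal, and the part of sex in the Pdk4 values was not tested. The Pdk4 difference of -0.58 (SE 0.43, adjusted p = 0.970) was -1.13 without Apc+/-Atg7-/- replicate 1 and -0.12 without Apc+/-Atg7-/- replicate 3.

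Gluconeogenic genes held the largest difference among the members and also the widest spread. G6pc encodes the catalytic subunit of glucose 6-phosphatase, which releases free glucose as the last step of the pathway. It read 8.26, 6.99 and 6.98 in Apc+/- and 7.38, 6.02 and 5.54 in Apc+/-Atg7-/- duodenum. Apc+/-Atg7-/- replicates 2 and 3 lay below all Apc+/- arrays, but replicate 1 lay above Apc+/- replicates 2 and 3, so the genotypes overlapped. The difference was -1.09 (SE 0.45), a level 2.13 times lower, with an unadjusted p of 0.0374 and an adjusted p of 0.946.

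The size of the G6pc difference varied with the arrays kept, and its SE and p varied with the estimate of variance. The difference was -0.67 without Apc+/- replicate 1 and -0.71 without Apc+/-Atg7-/- replicate 3. It was -1.63 without Apc+/-Atg7-/- replicate 1, the array with male-type signal. The part of sex in the G6pc values was not tested. The moderated fit draws each gene's variance toward that of all genes. Without that moderation the SE of G6pc was 0.70 and its unadjusted p 0.191.

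Pck1 encodes the cytosolic phosphoenolpyruvate carboxykinase, the entry enzyme of gluconeogenesis. It read 8.26, 8.47 and 6.69 in Apc+/- and 7.55, 7.81 and 6.92 in Apc+/-Atg7-/- duodenum. The Apc+/- arrays spanned 1.78 units and enclosed all 3 Apc+/-Atg7-/- arrays. The difference was -0.38 (SE 0.41, adjusted p = 0.985), and -0.94 without Apc+/- replicate 3 or -0.05 without Apc+/- replicate 2. Fbp1, fructose bisphosphatase, differed by -0.13 (SE 0.26, adjusted p = 0.994).

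Promoters were searched for the 5 members with the widest spread, G6pc, Pdk4, Pck1, Slc2a5 and Fbp1. Those of G6pc and Pck1, both classic targets of fasting hormones, are shown. They were also the only ones of the 5 that held a match to a motif searched. Each line gives the 250 bases before the start of transcription on the gene's own strand (RefSeq, GRCm38.p6), with matches to the motifs searched in capitals. G6pc lies on the plus strand at chr11:101367466-101367715 and Pck1 on the plus strand at chr2:173152823-173153072.
G6pc: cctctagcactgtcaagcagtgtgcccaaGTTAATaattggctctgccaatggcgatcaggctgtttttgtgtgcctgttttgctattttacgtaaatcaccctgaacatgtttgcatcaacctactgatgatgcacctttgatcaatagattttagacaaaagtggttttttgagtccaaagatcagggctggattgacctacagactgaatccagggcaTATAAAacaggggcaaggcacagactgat
Pck1: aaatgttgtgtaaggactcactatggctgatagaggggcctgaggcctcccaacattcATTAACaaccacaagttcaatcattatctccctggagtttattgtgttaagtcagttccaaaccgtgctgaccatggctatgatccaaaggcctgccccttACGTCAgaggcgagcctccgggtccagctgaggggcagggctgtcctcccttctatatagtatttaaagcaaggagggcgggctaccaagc

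The motifs searched on both strands were ACGTCA (part of the cAMP response element), TGTTTAC (forkhead factors), CACGTG (the E box), CAAAGTCCA (HNF4), GTTAAT (part of the HNF1 site) and TATAAA (the TATA box), and no match overlapped another in these lines. The capitals in G6pc are GTTAAT, starting 221 bases before the start, and TATAAA, starting 29 bases before it. The capitals in Pck1 are ATTAAC, which is GTTAAT on the other strand, starting 192 bases before the start, and ACGTCA, starting 91 bases before it. Windows of the same length held ACGTCA in 6.47%, GTTAAT in 6.43% and TATAAA in 12.4% of 32851 promoters. GTTAAT was found in at least 1 promoter of 3 of the 31 members (G6pc, Pck1 and Khk), beside 7.49% of all genes. ACGTCA was found in 6 of the 31, Pck1, Hk2 and Pfkfb3 among them, beside 7.29% of all genes. CACGTG was found in 6, Slc5a1 and Khk among them, beside 6.86%, and TATAAA in 1 (G6pc), beside 14.3%. TGTTTAC and CAAAGTCCA were found in 0 of the 31, beside 3.54% and 0.451%. A match is a description of the letters and not a bound site.

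The spread between replicate arrays differed widely among the members. The SD within genotypes was 0.85 for G6pc, 0.81 for Pdk4, 0.76 for Pck1, 0.53 for Slc2a5 and 0.48 for Fbp1, each above the 99th percentile of all genes. Hk2, Pfkfb3, Slc2a2 and Ldhb followed at 0.43, 0.40, 0.40 and 0.27. These 9 of the 31 lay above the 90th percentile of all genes by this SD. The other 22 lay between 0.07 and 0.19, around the median of all genes of 0.13. All 3 measured gluconeogenesis members were among the 9, as were 2 of 5 for sugar transport and fructose use, 2 of 10 for core glycolysis and 2 of 6 for pyruvate and lactate handling. Of the 86 measured further genes of these pathways, 14 also lay above that percentile.

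**Figure D3:**
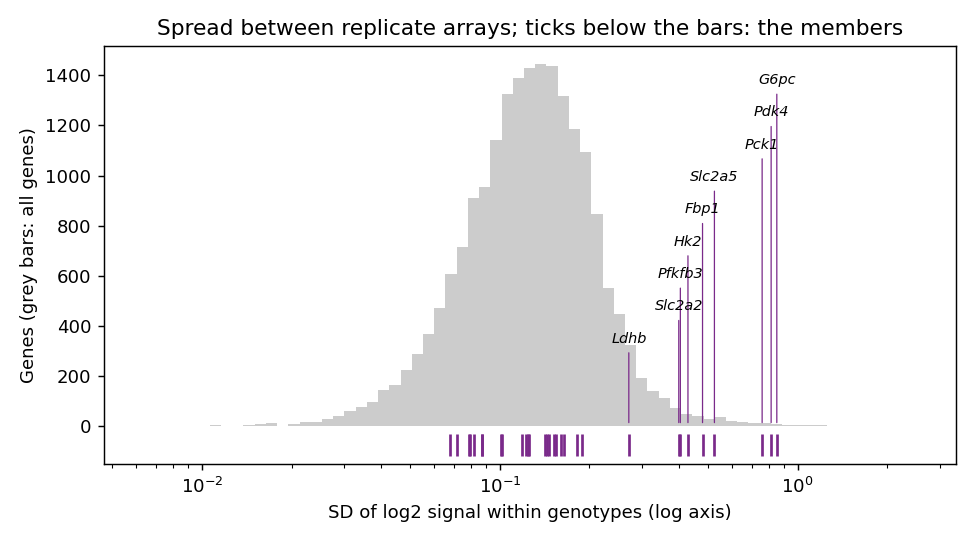
Grey bars count all 19938 genes by the SD of their log2 signal within genotypes (log axis), and ticks below the bars mark the 31 members. The 9 named members lie in the right tail, from Ldhb at 0.27 to G6pc at 0.85.

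The variable members did not share 1 pattern over the arrays. Apc+/- replicate 3 was the lowest Apc+/- array for Slc2a2, Slc2a5, Pck1 and Pdk4 and the highest for Hk2. It was the lowest of its genotype in 20 of the 31 members, beside 26.1% of all genes. Apc+/-Atg7-/- replicate 3 was the lowest of its genotype for G6pc, Pdk4, Pck1 and Pfkfb3 and had the lowest enterocyte mean of all arrays (10.60). G6pc, Slc2a5, Slc2a2 and Fbp1 had their highest value on Apc+/- replicate 1, the array with the highest enterocyte mean. That array was also the lowest of its genotype in 49.2% of all genes. It had the smallest array weight (0.417, against 0.900 to 1.59 on the others). The part of the enterocyte list or of that array in the spread was not tested.

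**Figure D4:**
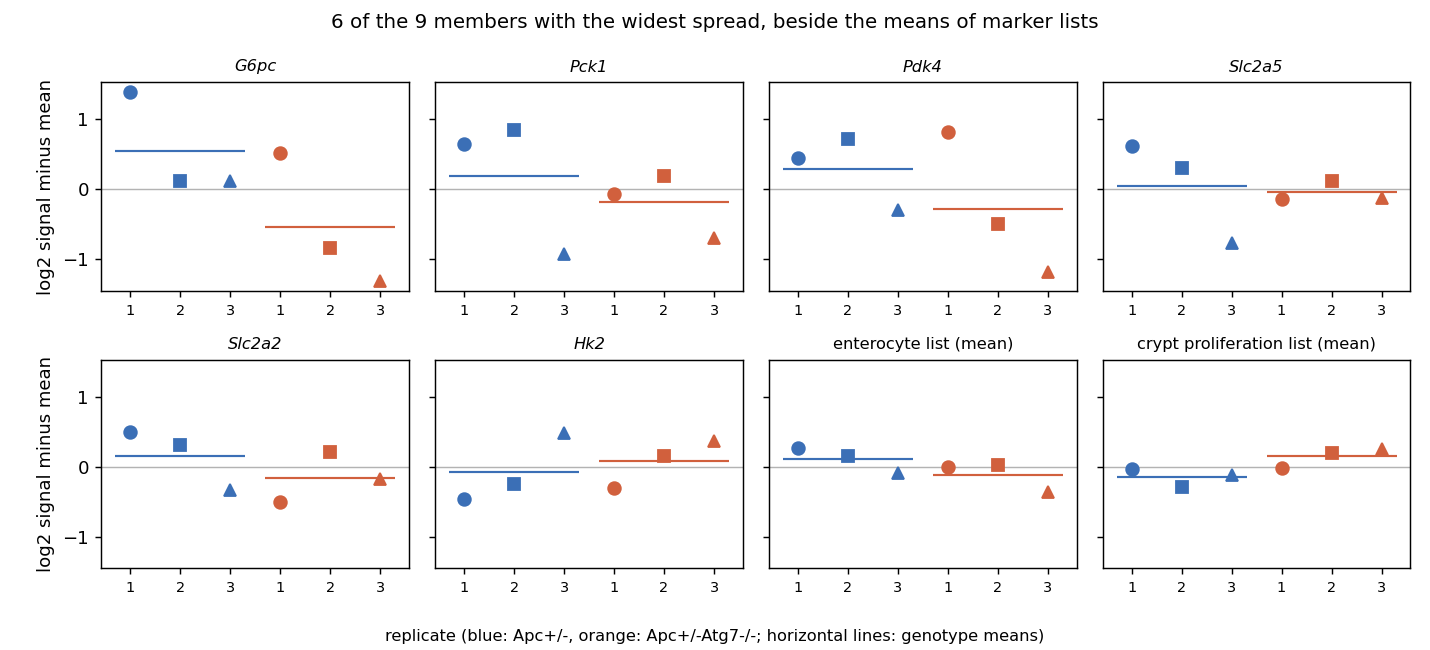
The log2 signal on each array minus its mean over the 6 arrays, for 6 of the 9 most variable members and for the means of the enterocyte and crypt proliferation lists; horizontal lines are genotype means. The symbols of both genotypes overlap for all 6 genes, and Apc+/- replicate 3 (blue triangle) is low for Pck1, Slc2a5 and Slc2a2 and high for Hk2.

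The 3 pentose phosphate members had differences above 0 that did not pass. Taldo1, transaldolase, read 7.95, 7.89 and 7.90 in Apc+/- and 8.19, 7.95 and 8.10 in Apc+/-Atg7-/- duodenum. Its arrays did not overlap, with a margin too small to see at 2 decimals for replicate 2, and the difference was 0.17 (SE 0.09, adjusted p = 0.95). Pgd, which makes NADPH, and Tkt, transketolase, differed by 0.15 (SE 0.10) and 0.14 (SE 0.11), and their arrays overlapped. The 3 intervals ran together from -0.11 to 0.39, so a 1.5-fold change lay outside each.

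AMPK subunit transcripts did not separate the genotypes. Prkaa1, a catalytic subunit, read 8.93, 8.73 and 8.76 in Apc+/- and 8.98, 8.91 and 8.92 in Apc+/-Atg7-/- duodenum, overlapping at 1 Apc+/- array. Its difference was 0.13 (SE 0.09, adjusted p = 0.965). The other catalytic subunit Prkaa2 differed by -0.11 (SE 0.12), the scaffold subunit Prkab1 by 0.02 (SE 0.12) and the nucleotide-binding subunit Prkag1 by 0.05 (SE 0.09). All 4 intervals stayed within 1.5-fold, as did those of 94.9% of all genes. AMPK is switched on by phosphorylation, which transcript levels do not read.

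The wider pathway held no gene that passed. Of 95 further genes of these routes, their regulators and glycogen, 86 were measured, and 0 passed by limma. Of the 86, 27 were higher and 59 lower, where 8611 of all genes were higher and 11327 lower. At an unadjusted p under 0.05 there were 1 higher and 6 lower, 7 of 86 beside 5.11% of all genes. The median difference was -0.05, against -0.018 over all genes. Pyruvate kinase, the last glycolytic step, differed by 0.02 (SE 0.11) for Pkm and by -0.002 (SE 0.09) for Pklr. The glucose-responsive factor Mlxipl and its target Txnip differed by -0.11 (SE 0.12) and 0.01 (SE 0.12).

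Rpia and Gbe1 had the smallest p of these further genes, and neither passed. Rpia, ribose phosphate isomerase of the pentose pathway, read 6.96, 6.93 and 6.93 in Apc+/- and 7.15, 7.20 and 7.35 in Apc+/-Atg7-/- duodenum. Its arrays lay apart, with a difference of 0.29 (SE 0.09, adjusted p = 0.779). Gbe1, the glycogen branching enzyme, read 7.27, 7.29 and 7.07 in Apc+/- and 6.77, 6.91 and 6.80 in Apc+/-Atg7-/- duodenum. These also lay apart, with a difference of -0.38 (SE 0.10, adjusted p = 0.517). Of 10 measured glycogen genes 7 were lower, beside 11327 of all 19938 genes, with a median of -0.07.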

How the data were processed

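Biotinylated cDNA from 100 ng of total RNA per sample was hybridised to Affymetrix arrays, per the labels. The deposited log2 values, 1 per probe set and array, were made by the authors with RMA and Partek, per the submitters' processing notes. No source used here names the log base, which was inferred from values of 2.4 to 13.3. RMA equalises arrays, which removes shifts shared by all transcripts. The number of arrays limits the precision, and scan dates were not used here. Of 28853 probe sets, 21789 carry 1 gene symbol, 1621 several and 5443 are unlisted.

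Genotypes were compared as Apc+/-Atg7-/- minus Apc+/- with limma 3.58.1 (R 4.3.3), two-sided, with eBayes moderation, no filter and Benjamini-Hochberg adjustment over 19938 genes. Intervals used its 9.7 degrees of freedom. The labels name no separate animals, so p-values measure only the spread between samples, and an exact permutation test of 3 against 3 cannot go below 0.1. The fit was tested on simulated data. Values by array are given for members at an unadjusted p under 0.05 or a difference of at least 0.3 and for fixed steps of the pathway. Further pathway genes are named at a p under 0.01 or as fixed steps. Pdk1, Taldo1 and the second Hk1 probe set were added after their values were seen. Members and lists were chosen with earlier results of these data known. Figures used matplotlib 3.10.9.

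Marker lists for Paneth, goblet, smooth muscle, pancreatic acinar, liver, immune, red blood cell and interferon-stimulated genes had median differences of -1.00, -0.23, -0.35, -0.10, 0.01, -0.12, -0.03 and 0.81.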

Additional observations from a re-analysis of the deposited data

How the results depend on the processing

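Across 16 alternative settings no member passed an adjusted p of 0.05 by limma, except G6pc with the replicate block (-1.09, SE 0.12, adjusted p = 0.0112, against at least 0.335 elsewhere), which made 1 member lower. The labels do not say whether replicate numbers pair the arrays. Deviations of same-numbered arrays from their genotype means correlated at 0.146, -0.074 and 0.240, and those of differently numbered arrays at -0.308 to 0.179. These values do not settle whether the arrays are paired. The block gave 22 genes higher and 22 lower, against 14 and 8. Without variance moderation 0 and 0 were called, with 988 at an unadjusted p under 0.05 and 1 of them a member. At an unadjusted p under 0.05 the counts were 474 and 545, with 1 and 1 member. With 1 array left out, 0 to 16 genes were higher (0 without Apc+/-Atg7-/- replicate 1, where 1083 lay at an unadjusted p under 0.05) and 2 to 11 lower, and 0 members passed in either direction, with 0 to 6 at an unadjusted p under 0.05. The median over the members stayed between -0.028 and 0.032. Of 498 member values under alternatives 30 had the other sign, in 12 members. These were Slc2a5 (0.20), Hk2 (-0.025), Pfkp (-0.037), Slc16a1 (0.0098) and Prkab1 (-0.069) with array weights, Pfkp (-0.011), Ldhb (0.017) and Prkab1 (-0.0051) with a further quantile normalization, Ldhb (0.011) and Slc16a1 (0.023) with arrays centred on their medians, and Hk1 at -0.021 as the mean of its probe sets and -0.12 in its other probe set, a choice added after seeing the data. With 1 array left out, signs turned for Slc2a5 (-0.50 to 0.19), Fbp1 (-0.40 to 0.17), Hk1 (-0.018 to 0.17), Hk2 (-0.045 to 0.43), Pfkp (-0.064 to 0.082), Pgk1 (-0.024 to 0.081), Pgam1 (-0.027 to 0.16), Ldhb (-0.20 to 0.18), Slc16a1 (-0.046 to 0.039), Slc16a3 (-0.16 to 0.0048), Prkab1 (-0.073 to 0.17) and Prkag1 (-0.0016 to 0.10). The cause was not tested.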
